A study of Homo sapiens with 12 samples.

Results

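The effects of a LILRB3 antagonist antibody and a LILRB3 agonist antibody were compared gene by gene in U937, a human pro-monocytic leukaemia cell line. The genes were those whose symbol occurs in the count tables of both antibodies. They numbered 902, out of 904 genes listed for the agonist and 27825 named genes in the table of the antagonist. All cells had been given 50 ng/mL interferon gamma, per the labels, although only the column names of set 1 mention interferon and those of set 2 do not. They then received the antagonist, the agonist or nonspecific IgG for 72 hours, with an antibody concentration that the labels write as 5 mg/mL. The antagonist and its own IgG group form set 1 and the agonist and its own IgG group form set 2, with 3 libraries in each of the 4 groups. The antibody and the set cannot be told apart except through each set's own IgG. U937 is 1 cell line, and the labels name no separate cultures. The spread behind each p-value is therefore that of these libraries, which may be technical.

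LILRB3 is a receptor of myeloid cells whose cytoplasmic tail carries inhibitory ITIM motifs. On ligation such motifs recruit phosphatases, chiefly SHP-1 and SHP-2, which oppose signals from activating receptors. Activating myeloid receptors signal through small membrane adaptors such as TYROBP and FCER1G. An agonist antibody engages an inhibitory receptor, whereas an antagonist antibody is meant to block it, which raises the question of which genes respond in opposite directions and which in the same direction.

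Counts per library were 17142362 to 18820312 in set 1 IgG and 17035334 to 17771980 in antagonist libraries. In set 2, where the table holds only the listed genes, they were 2764479 to 3321678 in IgG and 3135972 to 3522203 in agonist libraries. The shared genes took 14.6% to 14.9% of the counts of set 1. Levels below are CPM, counts scaled to a common library size, of the whole table in set 1 and CPM of the listed genes in set 2, so a level in set 1 cannot be compared with one in set 2. LILRB3 had 2, 1 and 2 counts in the IgG libraries of set 1 and 5, 2 and 3 with the antagonist, and was not listed for set 2. The myeloid markers AZU1 (1239 CPM in IgG libraries), CEBPA, SPI1, CD33 and CD4 were present in set 1, and MPO was nearly absent at 0.47 CPM. Of 15 markers of other cell types, 4 had no count in set 1, EPCAM, HBB and MS4A1 among them. The summed level of the 15 was 361 to 395 CPM in IgG and 296 to 303 CPM in antagonist libraries, nearly all of it NKG7, and its part in the results was not tested. Within groups, IgG library 1 of set 1 and agonist library 1 stood apart. The chi-square per degree of freedom over shared genes was 23.3 and 34.3 for the former, against 5.06 between the other IgG libraries, and 25 and 26.6 for the latter, against 3.74.

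The genes listed for set 2 had evidently been chosen on the agonist effect, since the log2 fold changes nearest to 0 were -0.25 and 0.12 and nothing lay between them. By edgeR's quasi-likelihood test, 99.9% of the listed genes had an adjusted p under 0.05, with 55.6% on the higher side and 44.2% on the lower. Agonist effects are therefore a description and carry no test here, as does the agonist side of the interaction. The antagonist effect was measured in other libraries and is independent of that choice. With the agonist, 504 shared genes were higher and 398 lower than with IgG, and the sign of no gene changed with the scaling of set 2. In set 1, 867 shared genes had enough counts to be tested, and 35 did not.

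The antagonist changed 401 of the 867 tested shared genes (46.3%), against 36.1% of all 13778 genes tested in set 1. Of these, 155 rose (17.9%, against 15.6% of all genes) and 246 fell (28.4%, against 20.5%). Among the 476 tested genes that were higher with the agonist, 118 fell and 101 rose with the antagonist. Among the 391 that were lower with the agonist, 128 fell and 54 rose. A total of 172 genes thus had opposite effects and 229 had effects of the same sign. As shares, 24.8% of the genes higher with the agonist fell and 21.2% rose, and 32.7% of those lower with it fell and 13.8% rose. These are the shares against which the counts of each gene group below are to be read. Antagonist log2 fold changes were below 0 for 54.2% of the genes higher with the agonist and for 61.9% of those lower with it, against 51.4% of all genes in set 1. Across the 867 genes Pearson's r between the effects was 0.038 and Spearman's rho 0.039, a description over genes that are not independent replicates. The absolute log2 fold change had a median of 0.21 for the antagonist, against 0.23 over all genes of set 1, and 0.36 for the agonist. A larger share of shared genes thus passed the threshold without a larger median antagonist effect. All 3 antagonist libraries lay on 1 side of all 3 IgG libraries in 502 of the 867 genes, against 49% of all genes of set 1.

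The interaction, which is the antagonist effect minus the agonist effect, passed an adjusted p of 0.05 for 510 of 900 genes (56.7%). It was higher for 243 genes (27%) and lower for 267 (29.7%). The split was 326 and 209 with DESeq2 size factors, which shifted the median interaction by 0.11 on the log2 scale, 314 and 214 with table totals, and 197 and 299 with the agonist zero point moved to the middle of the empty interval. All 172 genes with opposite effects passed the interaction, which follows from how that class is defined and is no further finding. It also passed for 19 of the 229 with the same sign and 312 of the 466 whose antagonist effect did not pass. Every listed gene had an agonist value away from 0, by the choice of genes. A gene with little antagonist effect can therefore pass the interaction through that choice, and the 312 are given as a count only. The 19 were genes that moved in 1 direction to different extents. In TMEM63A the antagonist log2 fold change was 0.80 and the agonist one 0.28, and in CKAP2L they were -0.23 and -0.54 (both chosen after their values were seen).

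**Figure D1:**
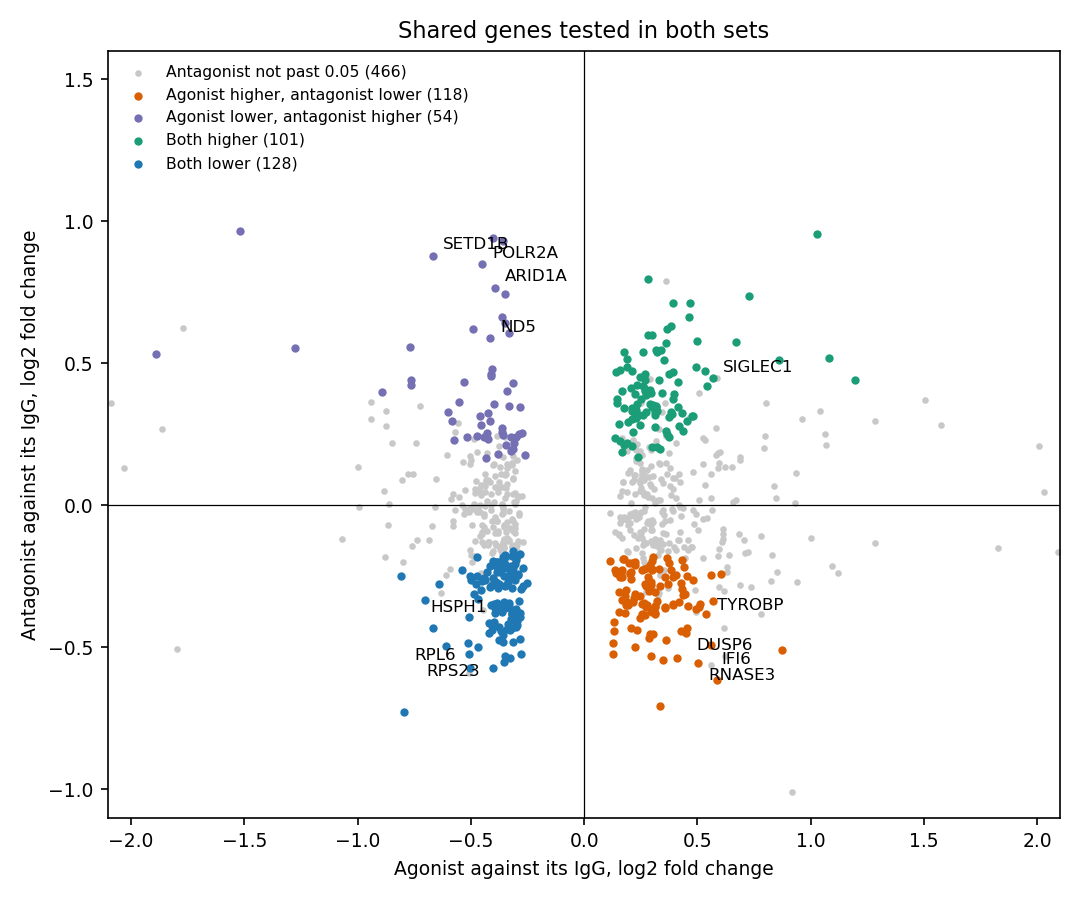
Log2 fold change of each of the 867 shared genes tested in both sets, with the agonist on the x axis and the antagonist on the y axis, coloured by class (118, 54, 101 and 128 genes, and 466 grey genes whose antagonist effect did not pass 0.05). The 4 coloured quadrants are all filled, the empty vertical band lies between agonist values of -0.25 and 0.12, and 4 genes lie outside the x axis.

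The number of genes in a class depended on the scaling, whereas no gene moved from one class to another under any of the 4 alternative scalings. Under all 4 alternative scalings 34 of 118 genes stayed agonist-higher and antagonist-lower, all 54 stayed agonist-lower and antagonist-higher, 56 of 101 stayed higher in both sets and 75 of 128 stayed lower in both. None of these scalings lowered the median antagonist effect. It shifted by 0.019 with DESeq2 size factors, 0.080 with table totals, 0.058 with set 1 scaled on shared genes and 0 with the moved zero point. The agonist effect shifted by -0.094, -0.016, 0 and 0.069 in that order. A rise with the antagonist could therefore hardly be lost, and these counts do not rank the classes by stability. Without IgG library 1 of set 1 the count of opposite genes was 181, and without agonist library 1 it was 164. Without antagonist library 1 or 3 it was 102 and 106. The bar chart of class counts gives each scaling.

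**Figure D2:**
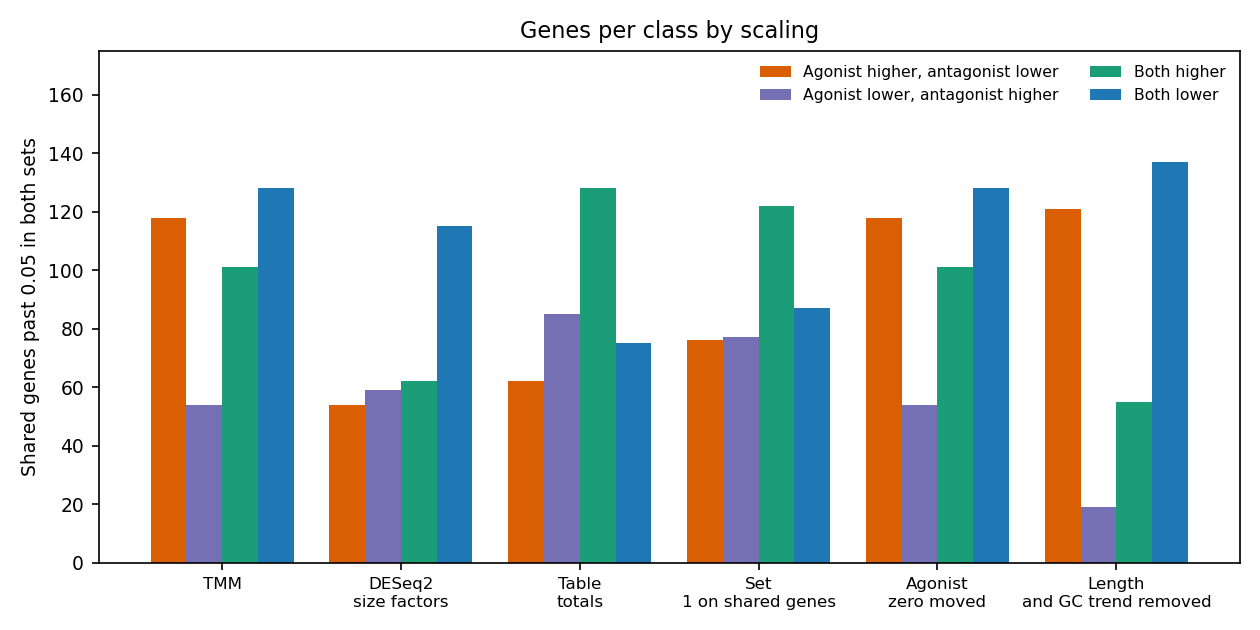
Number of shared genes past 0.05 in both sets (y axis) in each of the 4 classes under 6 ways of scaling or adjusting the counts (x axis). The class higher with the agonist and lower with the antagonist fell from 118 genes with TMM to 54 with DESeq2 size factors, and the class lower with the agonist and higher with the antagonist from 54 to 19 after the length and GC trend was removed.

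Granule proteins, signalling adaptors and ERK phosphatases were among the 118 genes that were higher with the agonist and fell with the antagonist. RNASE3, a cytotoxic granule ribonuclease (chromosome 14, 20891385 to 20892348, GRCh38.p14), had 39.2, 34.7 and 37.7 CPM in IgG and 24.9, 26.4 and 24.7 CPM in antagonist libraries. In set 2 it had 110, 131 and 142 CPM of listed genes in IgG and 196, 155 and 191 in agonist libraries. The groups overlapped in neither set, and every antagonist library was below and every agonist library above its IgG libraries. The log2 fold change was -0.56 ± 0.08 (SE) with the antagonist (adjusted p = 0.000383) and 0.50 ± 0.12 with the agonist, an interaction of -1.06 ± 0.15. Its neighbour RNASE2, a near copy of the same enzyme family whose reads may be shared, changed by -0.48 ± 0.07 and 0.36 ± 0.08. S100A4, a calcium-binding protein linked to cell motility, went from 209 ± 19 to 144 ± 5.1 CPM (SD, n = 3) in set 1 and from 1276 ± 26 to 1695 ± 260 CPM of listed genes in set 2. Of the 7 shared genes in the progenitor and granule list, 4 fell and 1 rose with the antagonist. These shares, 57.1% and 14.3%, compare with 28.4% and 17.9% of all tested shared genes. The 4 (RNASE2, RNASE3, S100A4 and SRGN) were all higher with the agonist.

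The adaptors TYROBP (DAP12) and HCST (DAP10), which couple activating receptors to kinases, are adjacent genes on chromosome 19. TYROBP (35904403 to 35908295) had 54.5, 47.0 and 49.8 CPM in IgG and 39.2, 36.3 and 40.6 CPM in antagonist libraries. It had 804, 678 and 719 CPM of listed genes in set 2 IgG and 1229, 989 and 983 in agonist libraries. All antagonist libraries lay below and all agonist libraries above the controls, with agonist library 1 the highest. The log2 fold changes were -0.38 ± 0.08 (adjusted p = 0.00245) and 0.54 ± 0.09. HCST (35902529 to 35904377) changed by -0.44 ± 0.08 and 0.43 ± 0.08, and FCER1G, the gamma chain used by Fc receptors, by -0.28 ± 0.07 and 0.30 ± 0.07. PIK3CD, a catalytic subunit of PI3 kinase in leukocytes, went the other way, with 0.26 ± 0.07 for the antagonist and -0.27 ± 0.06 for the agonist, and its rise did not pass once the trend with transcript length and GC content was removed. SIGLEC1, a macrophage lectin, was higher in both sets. Of the 5 shared genes in the list of LILR receptors and ITIM signalling, 2 rose and 2 fell with the antagonist. Each share was 40%, against 17.9% rising and 28.4% falling among all tested shared genes.

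DUSP5 and DUSP6, phosphatases that switch off ERK and are themselves induced by it, followed the opposite pattern. DUSP5 had 8.17, 7.82 and 7.46 CPM in IgG and 4.97, 4.68 and 4.73 CPM in antagonist libraries, a change of -0.71 ± 0.13 (adjusted p = 0.00158). In set 2 its levels were 169, 140 and 162 CPM of listed genes in IgG and 200, 188 and 207 with the agonist, a change of 0.33 ± 0.10. DUSP6 changed by -0.45 ± 0.12 (adjusted p = 0.011) and 0.45 ± 0.10. Groups of both genes did not overlap in either set. CISD1, an iron-sulphur protein of the outer mitochondrial membrane, had the most negative interaction of the named genes in this class, at -1.20 ± 0.22 (-0.61 ± 0.16 and 0.59 ± 0.16). RNASE3, IFI6, DUSP5, S100A4, TYROBP and HCST kept their class in all 20 alternatives, DUSP6 and CISD1 in 18, CYSTM1 in 15 and TMEM179B in 12.

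**Figure D3:**
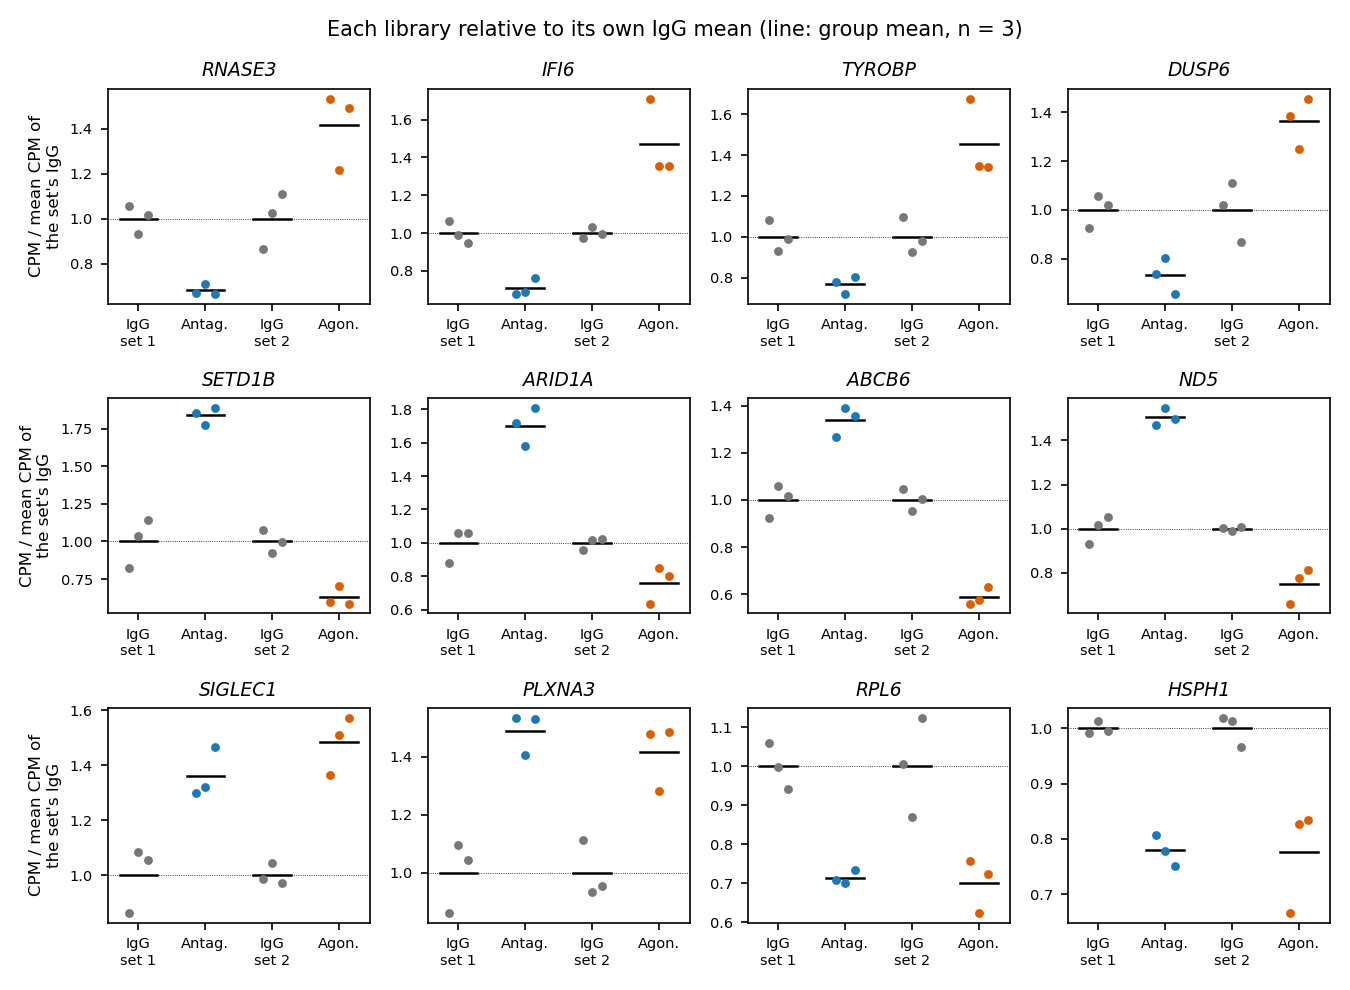
CPM of each library divided by the mean CPM of its own IgG group (y axis) for 12 genes, with IgG libraries in grey, antagonist in blue, agonist in orange and a line at each group mean (n = 3). The top row falls with the antagonist and is higher with the agonist, the middle row is the reverse, and the bottom row shows SIGLEC1 and PLXNA3 higher and RPL6 and HSPH1 lower in both sets.

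Genes of the type I interferon response were found in both directions, at shares near those of all genes higher with the agonist. They are induced through factors that include STAT2 and IRF9, which bind a promoter sequence called ISRE. All 20 shared members of the list were higher with the agonist. Of the 17 tested in set 1, 5 fell with the antagonist (BST2, IFI6, IFITM1, ISG15 and LY6E), 3 rose (PARP14, SIGLEC1 and STAT2) and 9 did not pass. The shares of 29.4% and 17.6% compare with 24.8% and 21.2% of all tested genes higher with the agonist. The interaction passed for 9 of 20 genes, against 56.7% of all shared genes. Each time the antagonist effect was the lower, a side largely set beforehand because all 20 were higher with the agonist. IFI6, an interferon-induced mitochondrial protein (chromosome 1, 27666064 to 27672192), had 55.3, 51.3 and 49.2 CPM in IgG and 35.2, 35.9 and 39.7 CPM in antagonist libraries. In set 2 it had 4586, 4842 and 4664 CPM of listed genes in IgG and 8035, 6370 and 6353 in agonist libraries. The antagonist libraries were all lower and the agonist libraries all higher, by -0.49 ± 0.07 (adjusted p = 0.000593) and 0.56 ± 0.08. BST2, which tethers enveloped viruses to the cell surface, changed by -0.36 ± 0.07 and 0.36 ± 0.07. ISG15, a ubiquitin-like protein, changed by -0.37 ± 0.12 and 0.31 ± 0.07 and kept its class in 14 of 20 alternatives. STAT2 itself rose by 0.30 ± 0.06 and was higher with the agonist by 0.21 ± 0.06, and PARP14 by 0.28 ± 0.06 and 0.31 ± 0.08.

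The promoters of IFI6 and BST2 are shown because they hold the ISRE element searched for on both strands, whose letters are in capitals. They are the 250 bases before the start of the gene in RefSeq (GRCh38.p14), written 5′ to 3′ on the strand of the gene.
IFI6 (chr1:27672193-27672442, minus strand): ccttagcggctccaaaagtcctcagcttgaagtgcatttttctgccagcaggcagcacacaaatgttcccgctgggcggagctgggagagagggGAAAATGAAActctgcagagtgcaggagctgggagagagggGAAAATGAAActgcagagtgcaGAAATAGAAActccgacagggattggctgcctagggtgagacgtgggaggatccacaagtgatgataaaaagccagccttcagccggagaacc
BST2 (chr19:17405631-17405880, minus strand): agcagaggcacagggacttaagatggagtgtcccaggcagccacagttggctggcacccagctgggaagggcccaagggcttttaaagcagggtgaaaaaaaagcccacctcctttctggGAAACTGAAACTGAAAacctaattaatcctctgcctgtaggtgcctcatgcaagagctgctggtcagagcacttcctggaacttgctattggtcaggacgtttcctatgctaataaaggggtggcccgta
IFI6 held 3 matches and BST2 held 2 that overlap. Of the 15 promoters available for the list, counted over 300 bases from 250 before to 50 after the start, 11 (73.3%) held the element, against 3.65% of all 27305 promoters. The share was 9.0% among promoters of the class higher with the agonist and lower with the antagonist, and 2.99% among genes higher in both sets.

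Ferritin, lysosome and sterol genes were also represented in the class higher with the agonist and lower with the antagonist. FTH1 and FTL, the heavy and light chains of the iron store ferritin, fell with the antagonist by -0.28 ± 0.06 and -0.43 ± 0.06 and were higher with the agonist by 0.37 ± 0.05 and 0.21 ± 0.06. The peroxidase GPX1 changed by -0.27 ± 0.06 and 0.30 ± 0.08. Near copies of the ferritin genes elsewhere in the genome can share their reads. Of 17 lysosomal genes, all higher with the agonist, 6 fell with the antagonist (35.3%, against 24.8% of all genes higher with the agonist) and 11 did not pass, with a median antagonist log2 fold change of -0.10, against -0.01 for all genes of set 1. FUCA1, a lysosomal fucosidase, had 139, 137 and 134 CPM in IgG and 109, 108 and 103 CPM in antagonist libraries, and changed by -0.36 ± 0.06 and 0.31 ± 0.05. NPC2, which exports cholesterol from the lysosome, changed by -0.38 ± 0.07 and 0.26 ± 0.07. Of 15 genes of sterol synthesis and uptake, all higher with the agonist, 7 fell (46.7%, against the same 24.8%), 1 rose and 7 did not pass. EBP, a sterol isomerase, had 219, 220 and 222 CPM in IgG and 179, 173 and 178 CPM in antagonist libraries, and changed by -0.32 ± 0.05 and 0.25 ± 0.07. CYP51A1, a sterol demethylase, changed by -0.38 ± 0.06 and 0.15 ± 0.06. The gene that rose was SREBF1, which encodes a transcription factor of lipid synthesis (0.40 ± 0.12 and 0.17 ± 0.06). Under all 4 scalings 2 of the 6 lysosomal genes (FUCA1 and NPC2) and 1 of the 7 sterol genes (EBP) kept their class.

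The promoters of ATP6V0D1, a subunit of the lysosomal proton pump (-0.39 ± 0.06 and 0.27 ± 0.08), and of EBP are shown for the letters searched for in their lists. Capitals mark CACGTG (E-box) in ATP6V0D1, and CCAAT, the letters bound by NF-Y, on either strand in EBP.
ATP6V0D1 (chr16:67481158-67481407, minus strand): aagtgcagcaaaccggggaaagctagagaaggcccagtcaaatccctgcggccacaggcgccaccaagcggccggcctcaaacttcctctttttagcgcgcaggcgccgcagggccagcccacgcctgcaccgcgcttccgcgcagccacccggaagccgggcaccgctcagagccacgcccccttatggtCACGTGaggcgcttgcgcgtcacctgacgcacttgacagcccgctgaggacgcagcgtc
EBP (chrX:48521558-48521807, plus strand): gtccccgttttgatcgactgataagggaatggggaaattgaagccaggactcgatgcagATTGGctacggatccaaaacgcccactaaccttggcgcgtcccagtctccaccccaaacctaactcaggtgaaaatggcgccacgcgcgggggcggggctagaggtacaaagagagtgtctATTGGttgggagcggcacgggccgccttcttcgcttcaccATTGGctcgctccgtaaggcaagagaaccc
CACGTG was found in 5 of 12 lysosomal promoters (41.7%), against 7.43% of all promoters. CCAAT was found in 9 of 11 sterol promoters (81.8%), against 35.7%.

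All 17 shared macrophage surface genes were higher with the agonist. Of the 13 tested in set 1, 3 fell (CLEC5A, FCGR2A and PECAM1) and 10 did not pass, with a median of -0.14. The share of 23.1% is near the 24.8% of all genes higher with the agonist. None of the 3 kept its class under all 4 scalings. All 4 antigen-presentation genes were higher with the agonist and 3 fell with the antagonist (75%, against the same 24.8%). They were B2M, the light chain of MHC class I (-0.35 ± 0.06 and 0.19 ± 0.05), HLA-B (-0.21 ± 0.05 and 0.22 ± 0.08), and RFXANK, a regulator of MHC class II genes (-0.25 ± 0.06 and 0.36 ± 0.12). HLA-B shares reads with other class I genes, and its groups overlapped in set 2. Among secreted proteins, the protease inhibitor TIMP1 changed by -0.30 ± 0.06 and 0.43 ± 0.06 and the lectin LGALS9 by -0.25 ± 0.06 and 0.28 ± 0.08. Among cytoskeletal and small GTPase genes 6 of 13 fell (46.2%, against 28.4% of all tested shared genes) and 7 did not pass. Of the 6, 5 were higher with the agonist, and ARHGAP25 was lower in both sets. Only ARPC5 and MYL6 of the 5 kept their class under all 4 scalings. MYL6, a myosin light chain, changed by -0.45 ± 0.07 and 0.30 ± 0.08, and ARPC5, a subunit of the actin-branching Arp2/3 complex, by -0.40 ± 0.07 and 0.25 ± 0.05. Of 18 myeloid and immediate early transcription regulators, 4 rose, 6 fell and 8 did not pass, shares of 22.2% and 33.3% that are near the 17.9% and 28.4% of all tested shared genes. NKG7, the marker behind the summed level of other cell types, was itself in this class (-0.32 ± 0.06 and 0.22 ± 0.07).

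**Figure D4:**
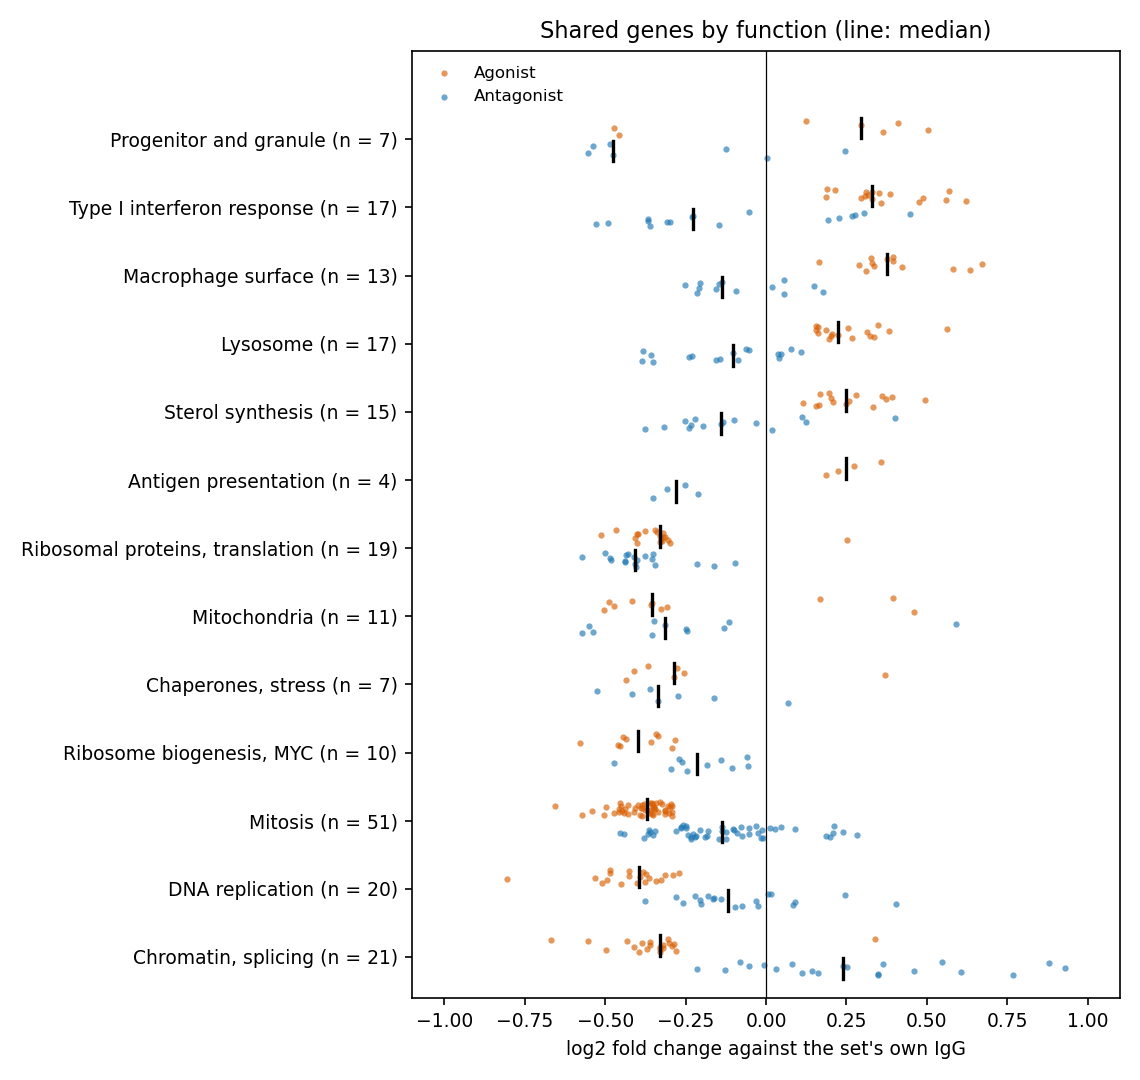
Log2 fold change of each tested shared gene against its set's own IgG (x axis) for 13 functional lists (rows), with agonist in orange, antagonist in blue and a black line at each median. The medians lie on opposite sides of 0 in the granule, interferon, macrophage surface, lysosome, sterol, antigen-presentation and chromatin rows, and on the same side in the ribosomal, mitochondrial, chaperone, ribosome biogenesis, mitosis and replication rows.

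The reverse pattern, lower with the agonist and higher with the antagonist, was found in 54 genes, of which 10 were on the list of chromatin regulators and splicing factors. Of 21 shared chromatin and splicing genes, 20 were lower with the agonist. With the antagonist 11 rose, 1 fell and 9 did not pass, and 10 of the 11 had been lower with the agonist. The 52.4% that rose and 4.8% that fell compare with 17.9% and 28.4% of all tested shared genes. The median log2 fold change was 0.24 for the antagonist and -0.33 for the agonist. The interaction was higher for 18 of 21, whereas it passed in either direction for 56.7% of all shared genes. That side was partly set beforehand, since 20 of the 21 were lower with the agonist. Of the 10, 4 kept their class once the trend of set 1 with transcript length and GC content was removed, and the median antagonist effect was then -0.0004. SETD1B, a methyltransferase of histone H3 lysine 4 (chromosome 12, 121790155 to 121832656), had 61.7, 77.6 and 85.8 CPM in IgG and 139, 133 and 141 CPM in antagonist libraries. In set 2 it had 128, 110 and 119 CPM of listed genes in IgG and 71.0, 84.2 and 70.0 with the agonist. IgG library 1 of set 1 was the lowest of its group, and no antagonist library overlapped the controls. The changes were 0.88 ± 0.10 (adjusted p = 0.00022) and -0.67 ± 0.12, an interaction of 1.55 ± 0.16.

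ARID1A, a subunit of the SWI/SNF remodelling complex (chromosome 1, 26696015 to 26782104), had 230, 276 and 276 CPM in IgG and 448, 411 and 471 CPM in antagonist libraries. It had 1093, 1163 and 1169 CPM of listed genes in set 2 IgG and 727, 967 and 912 with the agonist. The groups were separated in both sets, with changes of 0.77 ± 0.08 (adjusted p = 0.000117) and -0.39 ± 0.09. POLR2A, the largest subunit of RNA polymerase II, had 13, 14.8 and 14.9 CPM in IgG and 25.5, 27.4 and 23.7 CPM in antagonist libraries. It changed by 0.85 ± 0.09 (adjusted p = 0.000159), against -0.45 ± 0.09 with the agonist. RERE, a transcriptional corepressor, changed by 0.94 ± 0.11 and -0.40 ± 0.08. The transcription factor RUNX1 changed by 0.25 ± 0.07 and -0.47 ± 0.08, and its rise did not pass with that trend removed, at 0.10. MASP2, a serine protease of the complement lectin pathway, changed by 0.55 ± 0.11 and -1.28 ± 0.27, and the porphyrin transporter ABCB6 by 0.42 ± 0.10 and -0.76 ± 0.15. TSSK6, a testis-specific kinase, had the highest interaction of the named genes at 2.43 ± 0.51, on 1.27 to 5.32 CPM of listed genes with the agonist, and kept its class in 15 of 20 alternatives.

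The 128 genes lower with both antibodies included genes of protein synthesis, mitochondrial respiration, protein folding and proliferation. Of 19 ribosomal protein and translation genes, 18 were lower with the agonist, and 17 fell and 2 did not pass with the antagonist. The 89.5% that fell compares with 28.4% of all tested shared genes. All 17 were lower in both sets, and 16 of them stayed so under all 4 scalings. RPL6 (chromosome 12, 112405181 to 112418835) had 382, 360 and 340 CPM in IgG and 256, 252 and 265 CPM in antagonist libraries. In set 2 it had 1183, 1025 and 1323 CPM of listed genes in IgG and 892, 734 and 851 with the agonist. The treated libraries were below the controls in both sets, by -0.48 ± 0.06 (adjusted p = 0.000254) and -0.51 ± 0.09, and the interaction was 0.03 ± 0.12. RPSA changed by -0.50 ± 0.07 and -0.47 ± 0.09, RPL3 by -0.44 ± 0.05 and -0.41 ± 0.06, and RPS23 by -0.57 ± 0.10 and -0.40 ± 0.07. The elongation factor EEF2 was 1 of the 2 genes that did not pass in set 1 (-0.16 ± 0.08, adjusted p = 0.114), against -0.40 ± 0.04 with the agonist, an interaction of 0.24 ± 0.09 (adjusted p = 0.0356). Ribosomal protein genes have many processed copies that can share their reads.

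Of 11 shared mitochondrial genes, 8 fell and 1 rose with the antagonist, and 6 were lower in both sets. The shares of 72.7% and 9.1% compare with 28.4% and 17.9% of all tested shared genes. ATP5MC1 and SLC25A32 fell with the antagonist and were higher with the agonist. Among genes encoded by mitochondrial DNA, ATP8, a subunit of ATP synthase, had 135, 124 and 119 CPM in IgG and 87.6, 87.2 and 79.0 CPM in antagonist libraries, and changed by -0.57 ± 0.07 and -0.50 ± 0.08. The complex I subunit ND2 changed by -0.55 ± 0.06 and -0.35 ± 0.05, and the complex III subunit CYTB by -0.54 ± 0.06 and -0.33 ± 0.05. For both, the antagonist value was the larger in size, with interactions of -0.20 and -0.21. Scaling alone shifted the median interaction by 0.11 (DESeq2 size factors) and 0.097 (table totals). Which effect was larger is therefore a description and carries no test. ND5, another complex I subunit, was the gene that rose: it had 749, 818 and 848 CPM in IgG and 1183, 1245 and 1207 CPM in antagonist libraries. With the agonist it was lower, at 7541, 8849 and 9258 CPM of listed genes against 11446, 11273 and 11519. The changes were 0.59 ± 0.06 (adjusted p = 0.000117) and -0.42 ± 0.06, the reverse of each other, so that transcripts of the same mitochondrial genome were found in both the same-sign and the opposite class.

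Of 7 chaperone and stress genes, 6 were lower with the agonist, and 5 fell and 2 did not pass with the antagonist. The 71.4% that fell compares with 28.4% of all tested shared genes. The 5, HSPA8, HSPA13, HSP90AB1, HSPH1 and CCT3, kept their class in all 20 alternatives. HSPH1, a nucleotide exchange factor of HSP70, had 67.9, 69.4 and 68.1 CPM in IgG and 55.3, 53.3 and 51.4 CPM in antagonist libraries, a change of -0.36 ± 0.06 (adjusted p = 0.000985), against -0.37 ± 0.09 with the agonist. Of 10 genes of ribosome biogenesis and MYC targets, all lower with the agonist, 6 fell and 4 did not pass. The 60% that fell compares with 32.7% of all genes lower with the agonist. NPM1, a nucleolar chaperone, changed by -0.47 ± 0.07 and -0.28 ± 0.05, and IMPDH2, an enzyme of guanine nucleotide synthesis, by -0.30 ± 0.06 and -0.46 ± 0.06.

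The proliferation genes were lower with the agonist as a group but moved unevenly with the antagonist. All 51 shared mitosis genes were lower with the agonist (median -0.37). With the antagonist 21 fell, 4 rose (CDCA7, CIT, INCENP and TACC3) and 26 did not pass (median -0.14). The 41.2% that fell compares with 32.7% of all genes lower with the agonist. With the trend of set 1 in transcript length and GC content removed, 11 of the 21 and, of the 4, CDCA7 kept their class. The interaction passed for 24 of 51, against 56.7% of all shared genes. Each time the antagonist effect was the higher, a side largely set beforehand because all 51 were lower with the agonist. DLGAP5, a spindle protein, had 48.2, 45.5 and 43.0 CPM in IgG and 32.1, 36.5 and 31.9 CPM in antagonist libraries, and 1074, 1030 and 1037 CPM of listed genes in set 2 IgG against 793, 837 and 802 with the agonist. It was lower in both sets without overlap, by -0.44 ± 0.08 (adjusted p = 0.00125) and -0.37 ± 0.06. MKI67, the source of the Ki-67 antigen, was lower with the agonist (-0.66 ± 0.12) and did not pass with the antagonist (0.09 ± 0.06, adjusted p = 0.27), an interaction of 0.75 ± 0.15, and its antagonist value was -0.19 with that trend removed. CIT, a kinase of cytokinesis, changed by 0.28 ± 0.08 and -0.46 ± 0.07, and by 0.02 with the antagonist once the trend was removed. Of 20 replication and repair genes, all lower with the agonist, 6 fell, 1 rose and 13 did not pass, and the 30% that fell is near the 32.7% of all genes lower with the agonist. MCM6, a subunit of the replicative helicase, changed by -0.28 ± 0.05 and -0.37 ± 0.05, and FEN1, a flap endonuclease, by -0.38 ± 0.08 and -0.36 ± 0.07. The gene that rose was CCND2, cyclin D2 (0.40 ± 0.07 and -0.34 ± 0.08). The repressor E2F8 did not pass with the antagonist (0.09 ± 0.08), against -0.81 ± 0.13 with the agonist. Under all 4 scalings 8 of the 21 mitosis genes and 2 of the 6 replication genes (FEN1 and MCM6) stayed lower in both sets.

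The promoters of DLGAP5 and MCM6 are shown because they hold the letters typical of their groups. Capitals mark TTTGAA, the CHR element of late cell-cycle genes, and CCAAT in DLGAP5, and in MCM6 the E2F letters TTTGGCGC and TTTCGCGC, each on either strand.
DLGAP5 (chr14:55191586-55191835, minus strand): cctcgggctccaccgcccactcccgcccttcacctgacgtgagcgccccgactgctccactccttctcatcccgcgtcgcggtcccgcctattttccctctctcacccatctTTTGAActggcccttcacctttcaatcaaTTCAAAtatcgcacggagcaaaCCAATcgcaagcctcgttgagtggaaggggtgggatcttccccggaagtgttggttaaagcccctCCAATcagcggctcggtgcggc
MCM6 (chr2:135876444-135876693, minus strand): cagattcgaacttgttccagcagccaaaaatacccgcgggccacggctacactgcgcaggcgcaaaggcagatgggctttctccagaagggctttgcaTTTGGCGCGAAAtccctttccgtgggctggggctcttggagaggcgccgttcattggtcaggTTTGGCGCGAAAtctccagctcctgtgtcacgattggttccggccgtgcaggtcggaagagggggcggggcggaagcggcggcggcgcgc
In MCM6 each match on 1 strand overlaps a match on the other. TTTGAA was found in 33 of 47 mitosis promoters (70.2%), against 15.4% of all promoters, and in 21% of promoters of genes lower in both sets and 5.0% of those higher with the agonist and lower with the antagonist. E2F letters, with TTTCCCGC as a further form, were found in 7 of 16 replication promoters (43.8%), against 2.79% of all.

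The 101 genes higher with both antibodies included surface receptors, transporters and enzymes. SIGLEC1 (chromosome 20, 3686970 to 3712600) had 9.56, 12 and 11.7 CPM in IgG and 14.4, 14.7 and 16.2 CPM in antagonist libraries. In set 2 it had 887, 942 and 874 CPM of listed genes in IgG and 1230, 1361 and 1417 with the agonist. Treated libraries were above the controls in both sets, by 0.45 ± 0.11 (adjusted p = 0.00919) and 0.57 ± 0.06, and the interaction was -0.12 ± 0.12. ITGAX, the integrin chain CD11c of myeloid cells, changed by 0.42 ± 0.08 and 0.54 ± 0.06. PLXNA3, a semaphorin receptor, had 48.0, 61.0 and 58.2 CPM in IgG and 85.6, 78.4 and 85.3 CPM in antagonist libraries, and changed by 0.58 ± 0.08 and 0.50 ± 0.09. PAPLN, an extracellular matrix protein, changed by 0.58 ± 0.09 and 0.67 ± 0.17. ACOT11, an acyl-CoA thioesterase, changed by 0.52 ± 0.09 and 1.08 ± 0.28. The anion transporter SLC26A11 changed by 0.71 ± 0.14 and 0.47 ± 0.08. ABCA7, a lipid transporter, changed by 0.54 ± 0.08 and 0.26 ± 0.07, and the chromatin gene ZMIZ2 by 0.55 ± 0.07 and 0.34 ± 0.06. The orphan nuclear receptor NR4A1 changed by 0.35 ± 0.12 and 0.32 ± 0.09. PAPLN, ACOT11, SLC26A11 and ZMIZ2 kept their class in all 20 alternatives, whereas ITGAX, SIGLEC1, PLXNA3, ABCA7 and NR4A1 did not pass once the trend with transcript length and GC content was removed.

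The classes differed in transcript length and base composition, features that the choice of genes did not use. The median transcript length was 2022 bases in genes higher with the agonist and lower with the antagonist, 6908 bases in the reverse class, 4013 in genes higher in both sets and 3142 in genes lower in both, against 3446 for all genes of set 1. Transcripts under 1500 bases made up 34.8% of the first class and 0% of the second, against 11.2% of all. Median GC content was 53.4%, 53.7%, 58.3% and 45.1% in the same order, against 49.4%. Across shared genes with a length, Spearman's rho with length was 0.39 for the antagonist effect (852 genes), -0.31 for the agonist effect (886 genes) and 0.49 for the interaction (884 genes). Over all genes of set 1 the rho of the antagonist effect was 0.23 with length and 0.28 with GC content (13457 genes). When that trend was removed from set 1, 92 of 118, 18 of 54, 52 of 101 and 100 of 128 genes kept their class. A length was available for 118, 53, 100 and 122 of the genes in these classes. Genes without one were left unadjusted and are counted as they stood, ATP8 and CYTB among them. Genes named above that did not keep their class included CISD1, IFITM1, TMEM179B, SREBF1, TSSK6, CLEC5A, FCGR2A and CKAP2L. The chromatin list, with a median transcript of 7169 bases, then had a median antagonist log2 fold change of -0.0004, and 4 of its 10 opposite genes, ARID1A, CBX5 and SETD1B among them, kept their class. The ribosomal, chaperone and granule lists kept negative medians of -0.35, -0.26 and -0.26, with 15 of 17, 5 of 5 and 4 of 4 genes kept, and the interferon list -0.21 with 4 of 5. Lengths were those of the longest annotated transcript of each gene, with a median of 2108 bases in the ribosomal list. Whether those transcripts are the ones expressed was not tested, so the trend may be removed only in part. The part of transcript length and GC content in the opposite effects was not tested beyond this removal.

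**Figure D5:**
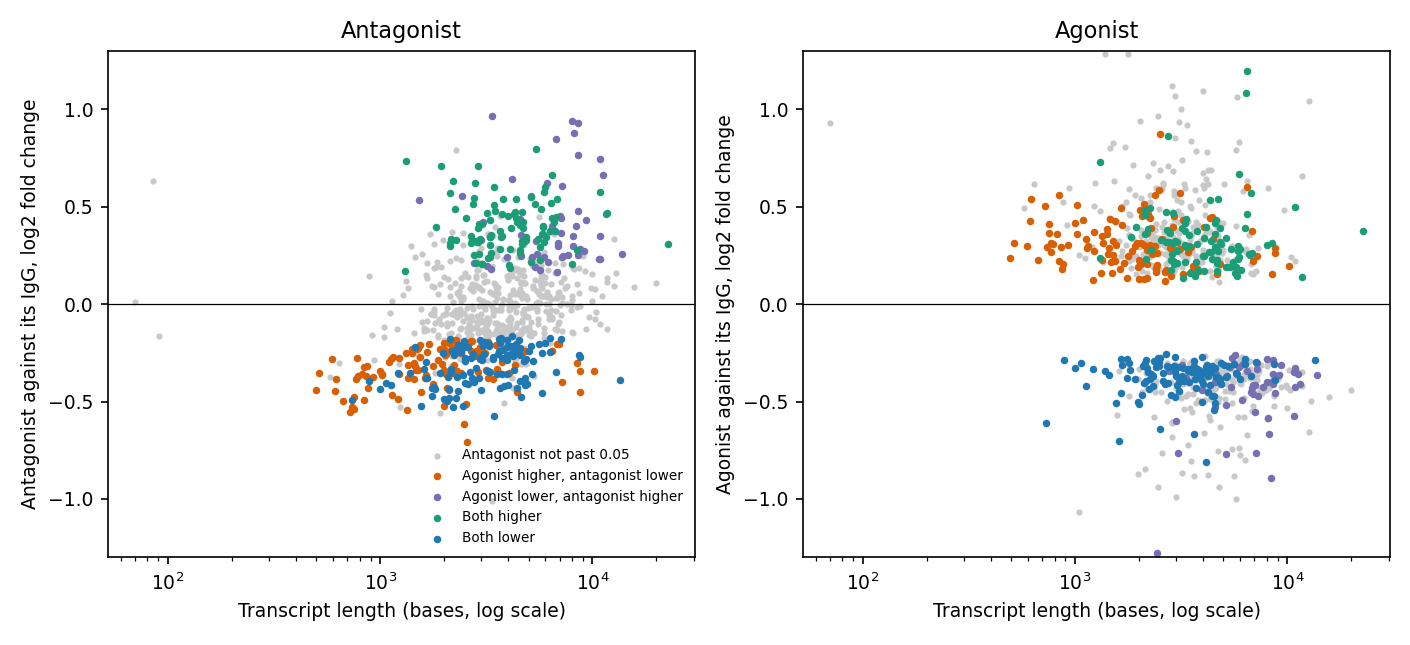
Transcript length on a log scale (x axis) against the log2 fold change (y axis) of the antagonist (left) and the agonist (right) for the 852 shared genes with a length that were tested in set 1, coloured by class. Short transcripts lie below 0 on the left and above it on the right more often than long ones, with rho 0.39 on the left, and 15 agonist values lie outside the y axis.

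For 35 shared genes no antagonist effect could be tested, because set 1 held too few counts. Of these, 28 were higher and 7 lower with the agonist. CD14, the lipopolysaccharide coreceptor of monocytes, had 7, 6 and 9 counts in IgG and 5, 5 and 3 in antagonist libraries, against 344, 285 and 263 counts in set 2 IgG and 630, 588 and 610 with the agonist. IL10, an anti-inflammatory cytokine, had 4 counts over the 3 IgG and 4 over the 3 antagonist libraries, and 0.302, 0 and 0 CPM of listed genes in set 2 IgG against 4.68, 5.06 and 10.9 with the agonist. Others, chosen after their values were seen, were the interferon-induced chemokine CXCL10 (0 counts in set 1 IgG, 228, 222 and 248 CPM of listed genes in set 2 IgG) and SPP1, which encodes osteopontin (0, 2 and 0 counts, against 249, 206 and 277 CPM). The IgG groups of the sets thus differed at baseline. Expressed relative to the counts of the shared genes, with the tables scaled separately, 93 of 902 genes were over 4-fold higher in set 2 IgG than in set 1 IgG and 45 over 4-fold lower, with a Spearman's rho of 0.80 between them. IFI6 was higher in set 2 IgG by 3.79 on the log2 scale, FTH1 by 4.55 and POLR2A by 3.87, whereas SETD1B was lower (-2.04). What these baseline differences came from was not tested. Whether opposite effects reflect the antibodies or another difference between the sets cannot be told apart.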

How the data were processed

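RNA sequencing libraries of U937 cells were compared in 2 sets of 6, each with 3 IgG libraries. The values are raw counts per gene, deposited by the authors as 1 table per set. HISAT2, Cufflinks and hg38 are named in the submitters' processing notes; the counting tool, its strand setting and its treatment of multiply mapped reads are not given in the sources used, so reads of antisense or overlapping genes, and of near copies, cannot be told apart. Rows without a symbol (570 in set 1, 0.0726% of counts in IgG and 0.102% in antagonist libraries) were left out. Column names give the group but no replicate number, so library numbers only follow the order of columns.

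Each table was filtered with filterByExpr, scaled by TMM and fitted whole with edgeR's robust quasi-likelihood test (edgeR 4.0.16, R 4.3.3), with Benjamini-Hochberg adjustment over all its tested genes and a threshold of 0.05. The interaction was fitted over the 12 libraries as 4 groups, each table scaled alone. Errors of log2 fold changes are standard errors. The code was tested on simulated data. Alternatives were DESeq2 1.42.0 (size factors, and its own test), table totals, a moved zero point for the agonist, set 1 scaled on the shared genes, no filter, a non-robust fit, limma 3.58.1 with voom weights and leaving out each library. Removal of the trend of set 1 with transcript length and GC content was chosen after seeing the data.

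The genes compared and the functional lists were chosen with earlier results of these data known. Named genes of the classes had at least 5 CPM over set 1 and groups that did not overlap in either set. They were the 10 with the largest interaction in each opposite class and the 10 with the largest shared effect in each same-sign class. From each list with at least 3 shared genes, up to 5 past the interaction and up to 3 with the same sign were added, whether or not their groups overlapped. Transcript length and GC content were those of the longest GENCODE transcript of each gene, with a length for 886 of 902 genes. Coordinates and promoters came from RefSeq (GRCh38.p14). Some results are not reported here.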

Additional observations from a re-analysis of the deposited data

Results flagged for a closer look

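The 172 genes with opposite effects past 0.05 in both sets all passed the interaction. This follows from how they were chosen, with the agonist side taken from a table selected on the agonist effect, and it is given as a count only. Rows of set 1 without a gene symbol, which no comparison used, held 0.1025% of the counts in antagonist libraries (± 0.0038, SD, n = 3), above the 0.0726% ± 0.0045 in IgG libraries.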

How the results depend on the processing

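The count of genes with opposite effects, 172, was 113 with DESeq2 size factors, 106 with the DESeq2 test and 102 to 181 when each library was left out in turn (102 without antagonist library 1 and 106 without antagonist library 3). The antagonist count among shared genes, 401, was 257 to 402 with a library left out (257 without antagonist library 1 and 263 without antagonist library 3). Genes higher with the agonist and lower with the antagonist, 118, numbered 54 with DESeq2 size factors, 62 with table totals, 50 with the DESeq2 test, 76 with set 1 scaled on the shared genes and 68 to 116 with a library left out (68 and 73 without antagonist library 1 or 3, and 77 without IgG library 2 of set 1). The reverse class, 54, numbered 85 with table totals, 19 with the length and GC trend removed and 33 to 65 with a library left out (34 and 33 without antagonist library 1 or 3). Genes higher in both sets, 101, numbered 62, 60 and 55 with DESeq2 size factors, the DESeq2 test and the trend removed, and 73 to 123 with a library left out. Genes lower in both, 128, numbered 75 with table totals and 82 to 128 with a library left out (82 and 84 without antagonist library 1 or 3). The cause was not tested. With antagonist effects split 155 higher and 246 lower, the split was 217 and 137 with table totals, 199 and 163 with set 1 scaled on the shared genes, and 74 and 258 with the trend removed. The antagonist log2 fold change of ELFN2 changed sign, to -0.0198, with the trend removed. Among effects of named genes past the threshold, the other values kept their direction, 3365 with and 326 without their side of the threshold; effects not past it were not followed here, and some changed sign (MKI67 to -0.19 with the trend removed, and HMGCS1 to 0.05 with table totals). Low counts in set 1 limit the 35 untested genes. No paired analysis was possible because the columns carry no replicate numbers.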
